A study of Mesocricetus auratus with 38 samples.

Results

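The genes described here encode the peroxiredoxins (Prdx1 to Prdx6), the thioredoxin reductases Txnrd1 and Txnrd2, the mitochondrial thioredoxin Txn2 and the methionine sulfoxide reductase Msrb2. The members were chosen by gene symbol and not by their values. Of these 10 named genes, 7 were matched by symbol among the 14631 genes quantified in hamster liver, namely Prdx2, Prdx3, Prdx4, Prdx5, Txnrd1, Txnrd2 and Msrb2. All 7 were among the 9099 genes that passed the filter on low counts and were tested. Prdx1, Prdx6 and Txn2 were not analysed here.

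Peroxiredoxins are abundant peroxidases that reduce hydrogen peroxide and organic peroxides with a reactive cysteine, which is oxidised in the reaction. In most of them the oxidised cysteine is reduced again by thioredoxin, and thioredoxin in turn by thioredoxin reductase, a selenoprotein that takes its electrons from NADPH. The liver is a major site of peroxide formation through fatty acid oxidation, and its peroxiredoxins are divided among cytosol, mitochondria, peroxisomes and the endoplasmic reticulum. Methionine sulfoxide reductases repair oxidised methionine in proteins and draw on the same electron source.

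Liver RNA of male Golden Syrian hamsters aged 22 weeks was sequenced in 38 libraries, and the labels name no animals, so each library was taken as 1 animal. In the HFD group (10 libraries) the diet held added cholesterol, fat supplied 23% of its calories for 12 weeks, and a placebo was given. The Dose I group (HFD + MI_D1, 9 libraries) and the Dose II group (HFD + MI_D2, 10 libraries) ate the same diet for 12 weeks and received combined metabolic activators (CMA) in the last 4 weeks, and in the control group (labelled chow diet, 9 libraries) fat supplied 11% of the calories of a normal diet over those 12 weeks. CMA combines L-carnitine, a carrier of fatty acids into mitochondria, betaine, a methyl donor, nicotinamide riboside, from which cells make NAD+, and N-acetylcysteine, a cysteine source. Betaine was given at 400 mg/kg in Dose I and 800 mg/kg in Dose II, and the other 3 compounds at 200 mg/kg each in Dose I and 400 mg/kg each in Dose II. Only Dose I and Dose II received the activators, always as the whole mixture, so no single component can be told apart, and no group received CMA on the normal diet.

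Total estimated counts ran between 4.08e+06 and 1.04e+07 per library, with group medians of 5.62e+06 in HFD, 5.64e+06 in Dose I, 6.10e+06 in Dose II and 5.01e+06 in control. Libraries are named by a letter code for their group (H, DI, DII or C) and the number in their labels. Control library C105 stood apart on the first principal component, with a score of 19.2 against -23.1 to 12.3 in the other libraries. The study left out 1 control library after a principal component analysis without naming it in its text, and C105 was taken as that one, so values below come from 37 libraries (8 controls) unless all 38 are named. DESeq2, the study's tool, called 3317 genes in HFD vs. control without C105, 80 in Dose I vs. HFD and 641 in Dose II vs. HFD. The study reports these same counts. With all 38 libraries they were 1575, 41 and 343. No pair of libraries within a group held identical values. The hepatocyte markers were the most abundant of the marker lists in every library, with a summed level of 142300 to 206600 CPM (TMM-normalised counts per 1e+06 counts) in HFD and 217300 to 258900 CPM in control.

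C105 stood apart from the other controls in several of the genes described here. On the scaling over 38 libraries it held 353 CPM of Prdx5 (104.7 to 144 in the other 8 controls), 859 CPM of Msrb2 (498 to 588 in the others), 247 CPM of Prdx4 (110.3 to 140.1 in the others) and 57.99 CPM of Prdx2 (9.58 to 31.4 in the others). For Txnrd1 it held 7.75 CPM, below the 20.8 to 39.8 CPM of the other controls, and for Txnrd2 110.6 CPM, above their 54.9 to 85.6 CPM. Only Prdx3, at 150 CPM in C105, lay within the range of the other controls, 114.5 to 164 CPM. Fold changes of these 7 genes against the control group are therefore given with and without this library.

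Per transcript length, Msrb2 was the most abundant of the 7 genes, with a median of 462 TPM (a share of all transcripts, corrected for transcript length) over the 37 libraries. Prdx5 followed with a median of 197 TPM, Prdx4 with 150 TPM, Prdx3 with 100.5 TPM, Prdx2 with 62.5 TPM, Txnrd2 with 52.2 TPM and Txnrd1 with 12.4 TPM. By their medians both reductases stood below the 4 peroxiredoxins, and the cytosolic reductase was the least abundant. This full order held in 21 of 37 libraries. Msrb2 was above every other member in all 37, and Prdx5 was above Prdx4 in 34 of 37. The place of Prdx2 was the least fixed, as it was above Txnrd2 in 26 of 37 libraries and above Prdx3 in 2.

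**Figure D1:**
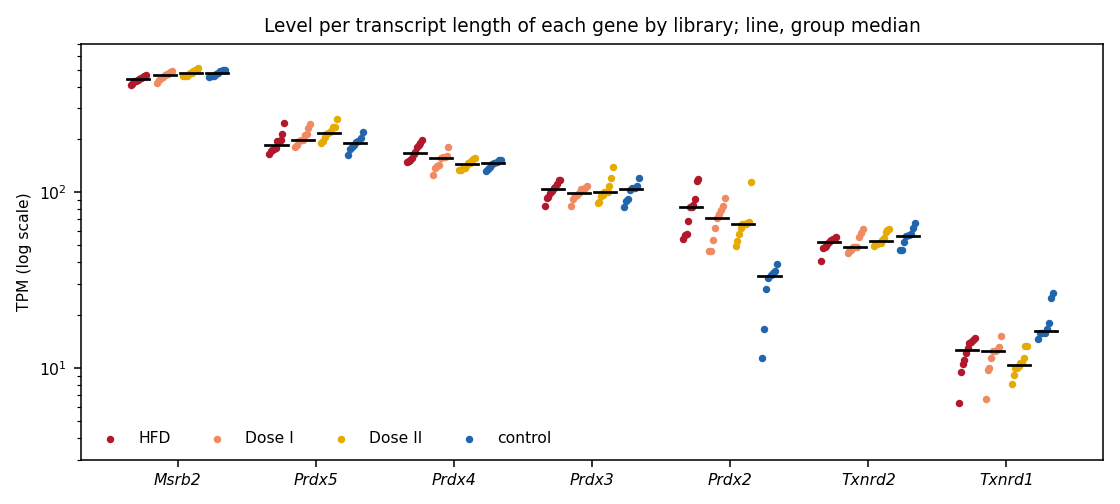
Level of each member in TPM (log scale) by library, with the 4 groups side by side for each gene, libraries ordered by value and a line at each group's median. Msrb2 is highest in every library at 407 to 509 TPM, and the control libraries of Prdx2, with a median of 33.1 TPM, lie apart from the 3 groups on the high-fat diet.

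The HFD vs. control comparison asks how a fat- and cholesterol-rich diet changed these genes in the liver. The transcript of the cytosolic peroxidase Prdx2 was 2.84-fold higher in HFD livers, the transcript of the endoplasmic reticulum peroxidase Prdx4 was 1.19-fold higher and the transcript of the cytosolic reductase Txnrd1 fell to 0.651 of the control level. Prdx3, Prdx5, Txnrd2 and Msrb2, which all act in mitochondria (Prdx5 also in cytosol and peroxisomes), did not pass the threshold. With edgeR's quasi-likelihood test and a Benjamini-Hochberg adjusted p under 0.1, 3 of the 7 genes were called (2 higher, 1 lower), beside 36.2% of all 9099 genes tested. The share of members called was thus near that of all genes. The median log2 fold change of the members was 0.05, and that of all genes tested was 0.01.

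**Figure D2:**
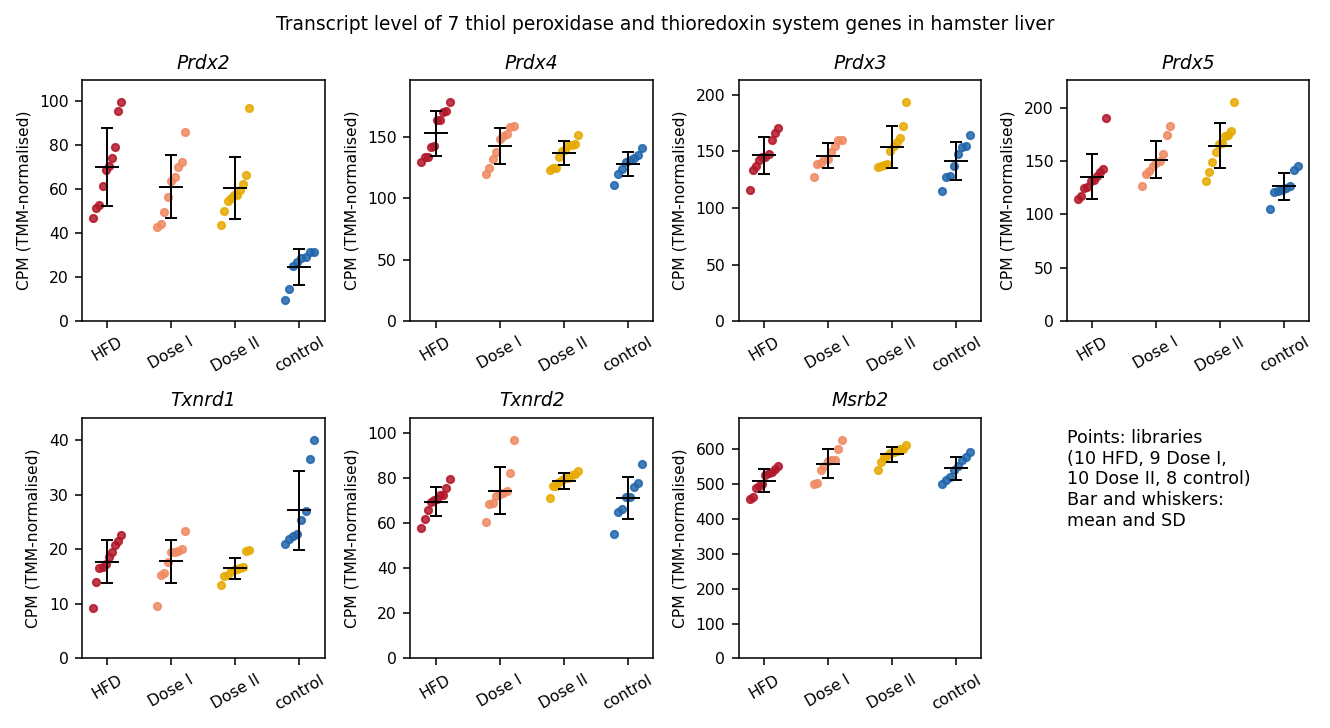
TMM-normalised CPM of each member in the 10 HFD, 9 Dose I, 10 Dose II and 8 control libraries (points, ordered by value within a group), with each group's mean and SD drawn over them. For Prdx2 every library on the high-fat diet, with a lowest value of 42.7 CPM, lies above each of the 8 control libraries drawn, with a highest of 31.5 CPM.

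Prdx2 is a typical 2-Cys peroxiredoxin of the cytosol, best known as one of the most abundant proteins of red blood cells. Its level had a lowest, median and highest value of 46.8, 69.5 and 99.3 CPM in HFD libraries, against 9.64, 27.8 and 31.5 CPM in control libraries. Every HFD library was above each of the 8 control libraries, and 7 of 10 were also above C105. The mean was 69.8 ± 17.8 CPM (SD, n = 10) in HFD and 24.5 ± 8.05 CPM (SD, n = 8) in control. The log2 fold change was 1.51 (SE 0.18, edgeR adjusted p = 3.49e-07), which placed Prdx2 at rank 8 of the 9099 genes by p. With C105 included the log2 fold change was 1.31 (edgeR adjusted p = 2.48e-05), where 15.6% of 9045 genes were called. The lowest control libraries were C109 at 9.64 CPM and C101 at 14.7 CPM, and the call held with each library left out in turn, at log2 fold changes of 1.39 to 1.57.

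Because Prdx2 is abundant in red cells, the erythroid marker list was read beside it. In bulk tissue, more cells of a type and more RNA per cell cannot be told apart. Of 16 listed erythroid markers, 7 were matched. Alas2, the erythroid enzyme of haem synthesis, held 7 to 46 counts per library, Slc4a1, the red cell anion exchanger, was at 0 in 24 of 38 libraries and at most 4 counts, Epb42 was at 0 in 37 and Rhag was at 0 in all 38. The summed level of the 7 markers was 1.92 to 6.40 CPM in HFD and 2.27 to 6.71 CPM in control. Erythroid markers were near 0 in both groups and their sums overlapped.

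Prdx2 also changed the make-up of the peroxiredoxin pool as far as the 4 measured members show it. It made up 14.8 ± 3.52% (SD, n = 10) of their summed TPM in HFD and 6.18 ± 1.91% (SD, n = 8) in control. The sum itself was 546 ± 41.7 TPM in HFD and 464 ± 32.1 TPM in control. Prdx5 made up 35.2 ± 3.71% in HFD and 40.9 ± 2.54% in control. Its own level was close in both groups, at 191.7 ± 24.9 TPM in HFD and 190 ± 17.4 TPM in control. The share of Prdx4 was close in both groups, at 31.1 ± 2.82% in HFD and 31.2 ± 1.91% in control.

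Prdx4 is the peroxiredoxin of the endoplasmic reticulum, where it passes oxidising equivalents to protein disulfide isomerases during protein folding. Its lowest, median and highest values were 130.2, 153.6 and 178.6 CPM in HFD and 110.9, 130.7 and 141 CPM in control. The groups overlapped, and 7 of 10 HFD libraries were above every control library. The log2 fold change was 0.26 (SE 0.07, edgeR adjusted p = 0.00651, n = 10 HFD and 8 control libraries). This call rested on leaving out C105, since with all 38 libraries the log2 fold change was 0.11 (edgeR adjusted p = 0.498).

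Prdx3, the peroxiredoxin of the mitochondrial matrix, held 116.3, 144.8 and 170.7 CPM in HFD (lowest, median, highest) and 115.2, 142.5 and 164.8 CPM in control. The groups covered nearly the same range. Its log2 fold change was 0.05 (95% interval -0.10 to 0.20, edgeR adjusted p = 0.64), and with C105 0.04 (edgeR adjusted p = 0.767). Prdx5, the atypical 2-Cys peroxiredoxin found in mitochondria, peroxisomes and cytosol, held 114.5, 131.8 and 190.1 CPM in HFD and 105.4, 123.9 and 145 CPM in control. The groups overlapped, apart from the highest HFD library. Its log2 fold change was 0.10 (95% interval -0.07 to 0.27, edgeR adjusted p = 0.405) without C105 and -0.16 (edgeR adjusted p = 0.511) with it, so no direction can be given.

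The thioredoxin reductases differed from each other in this comparison. Txnrd1, the cytosolic selenoprotein reductase, held 9.18, 17.9 and 22.6 CPM in HFD (lowest, median, highest) and 20.9, 24.1 and 40.1 CPM in control. Of 10 HFD libraries, 8 were below each of the 8 control libraries, and 0 were below C105. Its log2 fold change was -0.62 (SE 0.14, edgeR adjusted p = 0.0014), and with C105 it was -0.51 (edgeR adjusted p = 0.05). Txnrd2, the mitochondrial reductase, held 57.8, 70.5 and 79.5 CPM in HFD and 55.2, 71.7 and 86.2 CPM in control. All HFD libraries of Txnrd2 lay within the control range. In log2 fold change Txnrd2 was at -0.03 (95% interval -0.18 to 0.11, edgeR adjusted p = 0.778), and with C105 -0.12 (edgeR adjusted p = 0.413). The difference between the changes of these genes was not tested.

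Msrb2, the mitochondrial methionine-R-sulfoxide reductase, held 456, 514 and 551 CPM in HFD (lowest, median, highest) and 501, 546 and 591 CPM in control. The groups overlapped, with 5 of 10 HFD libraries below every control library. The log2 fold change was -0.10 (SE 0.05, edgeR adjusted p = 0.163). With all 38 libraries it was -0.19 (edgeR adjusted p = 0.0872), past the threshold, as C105 held the highest Msrb2 level of the control libraries. It also passed with length-trend offsets (-0.17, edgeR adjusted p = 0.01) and on TPM (-0.12, limma adjusted p = 0.0216).

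Other gene groups and library properties moved in the same comparison. Of 17 tested macrophage markers, 11 rose and 0 fell in HFD. Their summed level was 350 to 580 CPM in HFD and 259 to 364 CPM in control, with none of them at 0 throughout a group. Of 24 genes with long transcripts, 1 rose and 15 fell, with a median log2 fold change of -0.29. Over all genes tested, 36.2% were called in this comparison. In the fit with all 38 libraries 15.6% of all genes were called. There 5 of the macrophage markers rose and 0 fell, and 0 of the long-transcript genes rose and 6 fell. The part of either in the results for Prdx2, Prdx4 and Txnrd1 was not tested, except that with offsets for each library's trend of counts with length the log2 fold changes kept their signs and passed the threshold for all 3 genes, with Prdx4 at 0.15 (edgeR adjusted p = 0.0637).

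**Figure D3:**
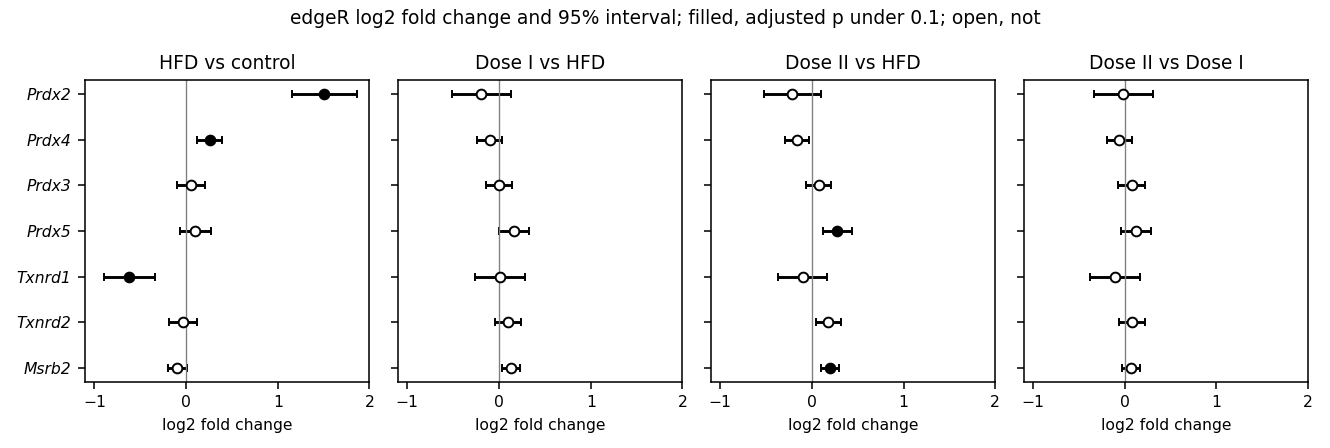
Log2 fold change of each member with its 95% interval in 4 comparisons, the first-named group over the second, filled where the edgeR adjusted p was under 0.1. Prdx2 (1.51), Prdx4 (0.26) and Txnrd1 (-0.62) are filled in HFD vs. control, and Prdx5 (0.28) and Msrb2 (0.20) in Dose II vs. HFD.

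Dose I vs. HFD asks what the lower dose of CMA changed on the same diet. None of the 7 members passed the threshold in edgeR (0 called, 1 at an unadjusted p under 0.05), beside 0.187% of all genes tested. DESeq2 called 0 of them as well. The gene at an unadjusted p under 0.05 was Msrb2, with 500, 565 and 628 CPM in Dose I (lowest, median, highest) and 456, 514 and 551 CPM in HFD. Of 9 Dose I libraries, 5 were above every HFD library. Its log2 fold change was 0.13 (SE 0.05, edgeR p = 0.0138, adjusted p = 0.406). Prdx5 held 126.98, 148 and 183 CPM in Dose I, with a log2 fold change of 0.16 against HFD (95% interval -0.00 to 0.32, edgeR adjusted p = 0.569), and 0 of its 9 Dose I libraries were above every HFD library. For Prdx3, Prdx4 and Txnrd2 the log2 fold changes were -0.00, -0.10 and 0.10, and their libraries overlapped with those of HFD.

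Dose II vs. HFD asks the same of the higher dose. The transcripts of Msrb2 and Prdx5 rose, by 1.15-fold and 1.21-fold, while the genes that stood highest and lowest against control under the HFD, Prdx2 and Txnrd1, did not pass the threshold. In edgeR, 2 of 7 members were called (both higher, 4 at an unadjusted p under 0.05), beside 5.63% of all genes tested. The median log2 fold change was 0.07 over the members and -0.00 over all genes. Both dose comparisons use the same 10 HFD libraries.

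Msrb2 held 541, 591 and 613 CPM in Dose II (lowest, median, highest), against the HFD values above. Of 10 Dose II libraries, 9 were above every HFD library. The mean was 585 ± 21.1 CPM in Dose II and 509 ± 33.3 CPM in HFD (SD, n = 10 each). The log2 fold change was 0.20 (SE 0.05, edgeR adjusted p = 0.0191), against 0.16 with length-trend offsets (edgeR adjusted p = 0.0549) and 0.13 on TPM (limma adjusted p = 0.0487). With C105 in the fit, which enters only through the shared spread and the scaling, the log2 fold change was 0.20 with an edgeR adjusted p of 0.154, where 2.7% of genes were called. The call held with each library of the compared groups left out in turn (adjusted p 0.0163 to 0.0631).

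Prdx5 held 131.2, 166.4 and 205.1 CPM in Dose II (lowest, median, highest), against 114.5, 131.8 and 190.1 CPM in HFD. The groups overlapped widely, with 1 Dose II library above every HFD library, as HFD library H110 at 190 CPM lay well above the other HFD libraries. The mean was 164.1 ± 21.1 CPM in Dose II and 135.3 ± 21.3 CPM in HFD (SD, n = 10 each). Its log2 fold change was 0.28 (SE 0.08, edgeR adjusted p = 0.0529). The call was lost with all 38 libraries (adjusted p = 0.352 from edgeR), in a fit of the compared groups alone (adjusted p = 0.103), and without HFD library H117 or Dose II library DII137, and the adjusted p ran from 0.00605 to 0.11 over the libraries left out.

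The other members in this comparison are given by their values. Txnrd2 held 71.1, 79.6 and 83.1 CPM in Dose II and 57.8, 70.5 and 79.5 CPM in HFD, with 5 of 10 Dose II libraries above every HFD library, and its log2 fold change was 0.18 (edgeR p = 0.0155, adjusted p = 0.153). Prdx4 held 123.1, 139.2 and 152 CPM in Dose II and 130.2, 153.6 and 178.6 CPM in HFD, with 3 of 10 Dose II libraries below every HFD library, and its log2 fold change was -0.16 (edgeR p = 0.0193, adjusted p = 0.171). Neither gene was called, although Prdx4 passed the threshold with length-trend offsets (log2 fold change -0.22, edgeR adjusted p = 0.0213) and on TPM (-0.23, limma adjusted p = 0.0284). Prdx3 held 135.8, 152.4 and 193.6 CPM in Dose II, with a log2 fold change of 0.07 (edgeR adjusted p = 0.635).

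Prdx2 in Dose II had a lowest, median and highest value of 43.7, 57.1 and 96.5 CPM, and in Dose I of 42.7, 63.7 and 85.6 CPM. Apart from 2 Dose I libraries and 1 Dose II library below every HFD library, all lay within the HFD range, and none lay within the range of the 8 controls. The log2 fold change against HFD was -0.20 in Dose I (edgeR adjusted p = 0.753) and -0.21 in Dose II (95% interval -0.53 to 0.10, edgeR adjusted p = 0.504). The interval for Dose II includes 0, and without library DII131 the log2 fold change was -0.33 (edgeR adjusted p = 0.274). Txnrd1 held 9.54, 19.5 and 23.4 CPM in Dose I and 13.4, 16.2 and 19.8 CPM in Dose II. Its log2 fold change against HFD was 0.01 in Dose I (edgeR adjusted p = 0.989) and -0.10 in Dose II (95% interval -0.37 to 0.17, edgeR adjusted p = 0.748).

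**Figure D4:**
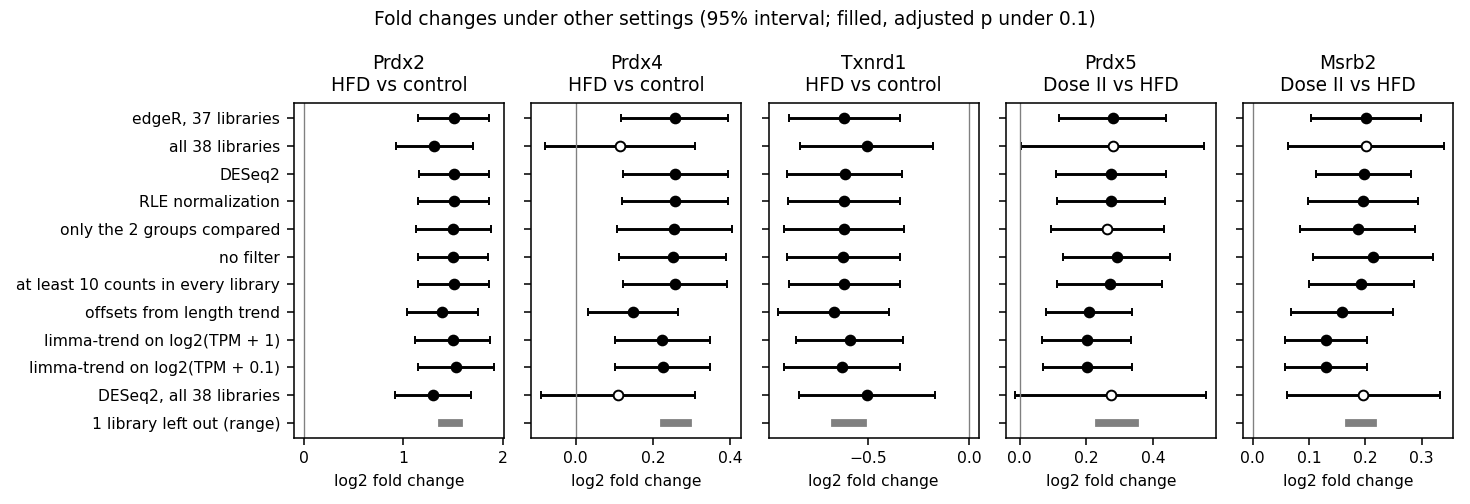
Log2 fold change with 95% interval of the 5 called results in HFD vs. control and Dose II vs. HFD under each setting, filled where the adjusted p was under 0.1, with the range over libraries left out in turn as a grey bar. Prdx2 and Txnrd1 are filled in every row that shows a test, while Prdx4 is open with all 38 libraries (log2 fold change 0.11), Prdx5 and Msrb2 are open in both settings with 38 libraries, and Prdx5 also in the fit of the compared groups alone.

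Dose II vs. Dose I gave no called member (0 of 7, 0 at an unadjusted p under 0.05) and no called gene at all, 0% of those tested by edgeR, with 271 at an unadjusted p under 0.05 and 0 called by DESeq2. The log2 fold changes ran from -0.11 for Txnrd1 (95% interval -0.38 to 0.17) to 0.12 for Prdx5 (-0.05 to 0.28). Neither dose was shown to differ from the other in these genes.

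Against the control group, which is shared with HFD vs. control, 4 of 7 members were called in Dose I (3 higher, 1 lower), beside 40.7% of all genes, and 3 of 7 in Dose II (2 higher, 1 lower), beside 47.4%. With C105, 2 were called in each, beside 21.8% and 32.9% of all genes. Prdx2 was 2.48-fold higher in Dose I (edgeR adjusted p = 2.08e-06) and 2.45-fold higher in Dose II (edgeR adjusted p = 7.32e-07), with every library of each dose above each of the 8 control libraries. With C105 its log2 fold change was 1.12 in Dose I (edgeR adjusted p = 2.37e-04) and 1.101 in Dose II (edgeR adjusted p = 1.01e-04), and 5 of 9 Dose I and 4 of 10 Dose II libraries were above every control. Txnrd1 fell by 0.61 on the log2 scale in Dose I (edgeR adjusted p = 0.00148) and by 0.72 in Dose II (edgeR adjusted p = 1.13e-04), and in Dose II every library was below each of the 8 control libraries. With C105 its log2 fold change was -0.50 in Dose I (edgeR adjusted p = 0.0463) and -0.61 in Dose II (edgeR adjusted p = 0.00806), with 0 libraries below every control. Both genes thus stayed apart from the control level at both doses.

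Prdx5 was higher than control in Dose II, by 0.38 on the log2 scale (SE 0.09, edgeR adjusted p = 6.40e-04), with 8 of 10 Dose II libraries above each of the 8 control libraries. That call was lost with C105, at 0.12 (edgeR adjusted p = 0.59) and 0 libraries above every control, and the value was smaller with length-trend offsets (0.15, edgeR adjusted p = 0.0888) and on TPM (0.21, limma adjusted p = 0.0188). In Dose I its log2 fold change was 0.26 (edgeR adjusted p = 0.0217) without C105 and -0.00 (edgeR adjusted p = 0.998) with it. Prdx4 was above control in Dose I by 0.15 (edgeR adjusted p = 0.0965), a call that was lost in 13 of 17 fits with a library left out and with C105 (0.01, edgeR adjusted p = 0.951). Msrb2, which was higher in Dose II than in HFD, had a log2 fold change against control of 0.10 in Dose II (95% interval -0.00 to 0.21, edgeR adjusted p = 0.122) and 0.03 in Dose I (edgeR adjusted p = 0.673), and with C105 0.01 in Dose II (edgeR adjusted p = 0.927) and -0.06 in Dose I (edgeR adjusted p = 0.647).

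Within groups, no pair of the 7 genes was shown to vary together, which does not show that they vary apart. Over 21 pairs of members, with each library taken as its deviation from its group mean in log2 CPM (n = 37), no correlation passed a Benjamini-Hochberg adjusted p of 0.1 in a permutation test within groups. The strongest was between Prdx4 and Prdx5, with Pearson's r = 0.447 (permutation p = 0.0069, adjusted p = 0.145) and Spearman's rho = 0.45 (permutation p = 0.0078, adjusted p = 0.164). Its r was 0.447 again without the 2 libraries farthest from the median of Prdx4. The coefficient of variation over HFD libraries was 25.5% for Prdx2 and 22.3% for Txnrd1, and 6.54% for Msrb2.

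The ratio of estimated counts to TPM follows the effective transcript length that the quantification assigned to a gene. The ratio was scaled to the median gene of each library. A small shift common to several genes therefore cannot be told apart from a shift of that median. For Prdx5 it was 5.04% higher in HFD than in control and for Txnrd2 5.87% higher, while the other 5 members differed by under 0.8%. Adjusted over 14 comparisons the p-values were 0.0795 for Prdx5 and 0.0877 for Txnrd2 (two-sided exact permutation tests), both under the threshold of 0.1. The smaller shifts of Prdx2 and Prdx4 (adjusted p = 0.0795 each) and of Prdx3 and Msrb2 (0.0877 each) passed in the same test, and only Txnrd1 did not (0.153). The 14 comparisons also held Dose II vs. HFD. There Prdx3, Txnrd1 and Msrb2 (adjusted p = 0.0795 each) and Prdx2 and Prdx4 (0.0877 each) passed in resampled permutation tests, with shifts of at most 0.422%. Prdx5 (0.373) and Txnrd2 (0.408) did not. In HFD vs. control Prdx5 and Txnrd2 thus stood apart by the size of the shift and not by the test. CPM values of Prdx5 and Txnrd2 carry that shift and TPM values do not. On TPM the log2 fold change in HFD vs. control was 0.01 for Prdx5 (limma adjusted p = 0.941) and -0.12 for Txnrd2 (limma adjusted p = 0.209), against 0.10 and -0.03 in the edgeR fit to counts, and neither gene was called on either scale.

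The genes whose 4 group means lay nearest to those of each called member, among 9097 genes with a mean of at least 1 CPM over 37 libraries, were found by the mean absolute distance of centred log2 CPM. Nearest to Prdx2 were Plin3, a lipid droplet coat protein (distance 0.0368), Lix1l (0.061) and Tmem88 (0.0653). Nearest to Txnrd1 were Usp1, a deubiquitinase (0.01), Med1, a subunit of the Mediator complex (0.0141), and Serinc1 (0.0146). For the members with smaller changes, Psmg2 lay nearest to Prdx4, Polr2h to Prdx5 and Hsbp1l1 to Msrb2. With 4 group means, likeness is easily met and is given as a description only.

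Other genes of the thioredoxin system were read from a list of 20, of which 18 were matched and tested. The list also held glutaredoxins and sestrins, which are neither thioredoxins nor their reductases. In HFD vs. control, 2 rose and 1 fell, beside 36.2% of all genes called. The median log2 fold change was -0.01, beside 0.01 over all genes. Txn1, the cytosolic thioredoxin that Txnrd1 reduces and that serves Prdx2, averaged 428 ± 54.3 CPM in HFD (SD, n = 10) and 326 ± 36.9 CPM in control (SD, n = 8), a log2 fold change of 0.39 (edgeR adjusted p = 7.42e-04). Glrx5, a mitochondrial glutaredoxin of iron-sulfur cluster assembly, rose by 0.25 on the log2 scale (SE 0.08, edgeR adjusted p = 0.0248). Msra, which repairs the S form of methionine sulfoxide as Msrb2 does the R form, averaged 191 ± 28.5 CPM in HFD and 227 ± 25.9 CPM in control (-0.25, edgeR adjusted p = 0.0507). With C105 included only Msra of these 3 was called (edgeR adjusted p = 0.0346), while Txn1 was at an adjusted p of 0.23 and Glrx5 at 0.885.

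**Figure D5:**
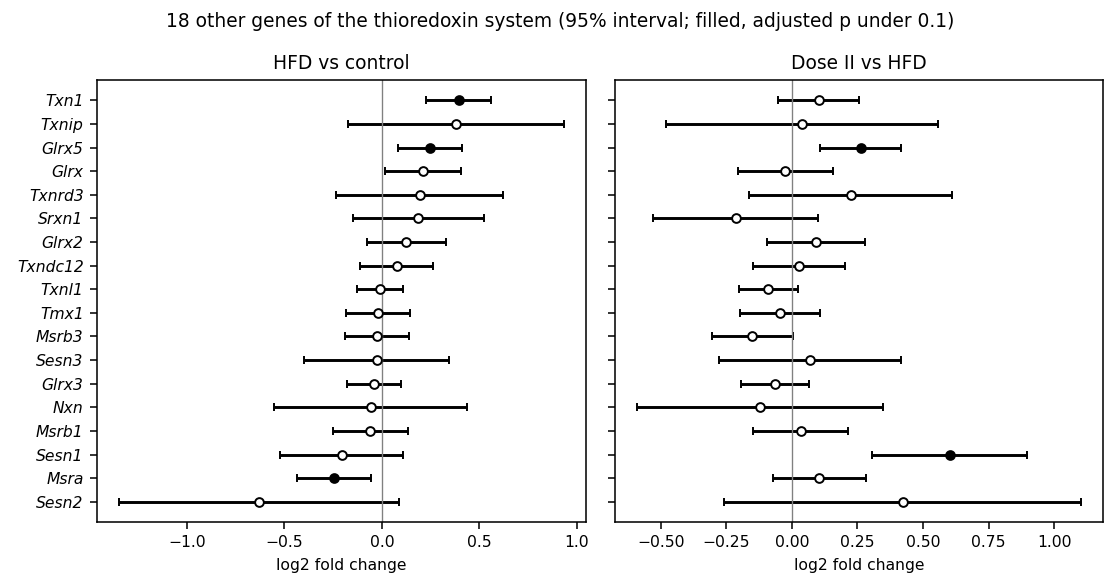
Log2 fold change with 95% interval of the 18 tested genes of the thioredoxin system list, which include glutaredoxins and sestrins. HFD vs. control and Dose II vs. HFD are shown, in the order of the first comparison, filled where the edgeR adjusted p was under 0.1. Txn1 (0.39), Glrx5 (0.25) and Msra (-0.25) are filled in HFD vs. control, and Sesn1 (0.60) and Glrx5 (0.26) in Dose II vs. HFD.

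Under CMA, 1 of these 18 genes rose in Dose I vs. HFD and 2 rose in Dose II vs. HFD, with 0 lower in both. Of all genes tested, 0.187% and 5.63% were called in these comparisons. The called genes were a sestrin and a glutaredoxin. No thioredoxin, thioredoxin reductase or methionine sulfoxide reductase of the list was called in either comparison. Sesn1, a sestrin regulated by stress and nutrient signals, averaged 67.7 ± 25.4 CPM in Dose I (SD, n = 9) and 65.3 ± 17.9 CPM in Dose II (SD, n = 10), against 43.01 ± 5.87 CPM in HFD (SD, n = 10). Sesn1 rose by a log2 fold change of 0.66 in Dose I (edgeR adjusted p = 0.0924) and 0.60 in Dose II (edgeR adjusted p = 0.0214), both against HFD. Glrx5 rose by 0.26 on the log2 scale in Dose II (SE 0.08, edgeR adjusted p = 0.0584). With C105 in the fit, 0 of the 18 were called in Dose I vs. HFD, beside 0.0553% of all genes. In Dose II vs. HFD 1 was then called, beside 2.7%.

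Glutathione-dependent and other peroxide-removing enzymes form the parallel route to the peroxiredoxins. The list read for them also held Gclc and Gss of glutathione synthesis, the superoxide dismutases Sod1 and Sod2, and the glutathione transferases Gsto1 and Gstk1. Its counts are therefore not of peroxide-removing enzymes alone. Of 11 tested genes of this list, 2 rose and 2 fell in HFD vs. control, beside the 36.2% called of all genes. Gpx1, the cytosolic glutathione peroxidase, averaged 1897 ± 327 CPM in HFD and 1345 ± 206 CPM in control (log2 fold change 0.50, edgeR adjusted p = 0.0017), and Gpx4, the peroxidase of membrane lipid peroxides, rose by 0.27 (edgeR adjusted p = 0.0131). Gsr, the glutathione reductase, fell by 0.24 on the log2 scale (edgeR adjusted p = 0.00975), and Cat, the peroxisomal catalase, fell by 0.19 (edgeR adjusted p = 0.0725). With all 38 libraries the count was 0 higher and 1 lower (Gsr, edgeR adjusted p = 0.0421), beside 15.6% of all genes.

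Of these 11 genes, 2 rose and 0 fell in Dose II vs. HFD, beside 5.63% of all genes called. Gstk1, a mitochondrial and peroxisomal glutathione transferase, averaged 392 ± 47 CPM in Dose II and 294 ± 44.3 CPM in HFD (log2 fold change 0.41, edgeR adjusted p = 0.00616), and Gpx4 averaged 406 ± 46 CPM in Dose II and 327 ± 39.5 CPM in HFD (0.31, edgeR adjusted p = 0.0167). With C105 in the fit 1 of the 11 was called, beside 2.7% of all genes. In Dose I vs. HFD 0 of the 11 passed the threshold, beside 0.187% of all genes.

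NADPH is the electron source of both reductases, and 7 genes of its supply were tested. Over all genes tested, 36.2% were called in HFD vs. control and 5.63% in Dose II vs. HFD. In HFD vs. control only Me1, the cytosolic malic enzyme, was called, at a mean of 170 CPM in HFD and 279 CPM in control (log2 fold change -0.72, SE 0.28, edgeR adjusted p = 0.0539), and with all 38 libraries it was not (edgeR adjusted p = 0.201). In Dose II vs. HFD, Idh2, the mitochondrial NADP-dependent isocitrate dehydrogenase, rose by 0.36 on the log2 scale (edgeR adjusted p = 0.00544), Mthfd1 rose by 0.24 (edgeR adjusted p = 0.0907) and Me1 fell by 1.07 (edgeR adjusted p = 0.0251). With C105 in the fit, 1 of the 7 was called higher and 1 lower in that comparison, beside 2.7% of all genes.

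Txnrd1 is a known target of the transcription factor Nrf2 and a selenoprotein, so both of those lists were read beside it. Of 13 tested Nrf2 targets, 5 rose and 3 fell in HFD vs. control, beside 36.2% of all genes called. Their median log2 fold change was 0.11. Txn1 (0.39) rose with Hmox1, the haem oxygenase (0.52, edgeR adjusted p = 0.00117), and Osgin1 (0.99, edgeR adjusted p = 0.00971), while Gsr fell. Of 13 tested selenoprotein genes other than Txnrd1 and Txnrd2, 5 rose and 3 fell, beside the same 36.2%, with a median of 0.19. Selenoi fell by 0.41 on the log2 scale (edgeR adjusted p = 1.79e-04), Dio1, the thyroid hormone deiodinase, fell by 0.52 (edgeR adjusted p = 0.00211) and Selenof fell by 0.27 (edgeR adjusted p = 0.00885), against the rise of Gpx1. Both lists held genes called higher and genes called lower, and their bearing on the change of Txnrd1 was not tested. With all 38 libraries 2 Nrf2 targets were higher and 1 lower. In that fit 1 selenoprotein gene was higher and 3 lower, and 15.6% of all genes were called. Under CMA, Hmox1 averaged 17.8 ± 3.57 CPM in Dose I (SD, n = 9) and 19.1 ± 2.26 CPM in Dose II (SD, n = 10), against 24.6 ± 5.2 CPM in HFD (SD, n = 10), and fell by 0.47 on the log2 scale in Dose I (edgeR adjusted p = 0.0924) and by 0.37 in Dose II (edgeR adjusted p = 0.0536). Of the 13 tested Nrf2 targets, 1 was lower and 0 higher in Dose I vs. HFD, beside 0.187% of all genes called. In Dose II vs. HFD 2 were lower and 0 higher, beside 5.63%. With C105 in the fit, 0 were called in Dose I vs. HFD, beside 0.0553% of all genes. In Dose II vs. HFD 2 were then lower, beside 2.7%.

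Prdx3, Prdx5, Txnrd2 and Msrb2 share the mitochondrion, so a list of mitochondrial housekeeping genes was read beside them. Of its 16 tested genes, 0 were called in edgeR in Dose II vs. HFD (0 in the fit with 38 libraries also), with a median log2 fold change of 0.11 beside -0.00 over all genes tested. The log2 fold changes of the 4 members in the same comparison were 0.07 for Prdx3, 0.28 for Prdx5, 0.18 for Txnrd2 and 0.20 for Msrb2. All 4 were above 0 in this fit, and 2 of them were called, beside 5.63% of all genes. On TPM with a pseudocount of 1 the value of Prdx3 was -0.000934. With all 38 libraries neither Prdx5 (edgeR adjusted p = 0.352) nor Msrb2 (0.154) was called, beside 2.7% of all genes. Of 17 macrophage markers, 1 rose and 7 fell in Dose II vs. HFD, beside 5.63% of all genes called. Their sums were 260 to 476 CPM in Dose II and 350 to 580 CPM in HFD, and their part in these results was not tested. With C105 in the fit 1 of these markers rose and 2 fell, beside 2.7% of all genes called.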

How the data were processed

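The authors quantified reads with the kallisto pipeline against the MesAur1.0 hamster genome and deposited estimated counts per gene symbol, not normalized. They also deposited TPM, counts scaled by transcript length and library total, for the same 14631 symbols. All 38 columns of both tables matched a labelled sample, and groups came from the labels. The members, gene lists and tests were chosen with earlier results of these data known.

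After rounding, the filterByExpr filter and TMM normalisation, 37 libraries entered 1 edgeR 4.0.16 fit in R 4.3.3 (quasi-likelihood test with a coefficient for each group). Leaving out 1 control library follows the study's methods, and that this is C105 was taken from earlier work on these data. A gene was called where its Benjamini-Hochberg adjusted p over all tested genes was under 0.1. Each SE was derived from the log2 fold change and the root of its F statistic. The scripts were tested on simulated data. TPM were used for levels between genes.

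Named genes were all 7 matched members, up to 4 called members of each list with the smallest adjusted p, and the 3 nearest genes of each called member. The lists held other thioredoxin system (with glutaredoxins and sestrins), glutathione and peroxide, NADPH supply, Nrf2 target, selenoprotein, mitochondrial and long-transcript genes. They also held markers of 8 cell types. Alternatives were DESeq2 1.42.0, all 38 libraries, RLE normalization, the compared groups only, no filter or at least 10 counts in every library, length-trend offsets (lowess span 0.3), limma-trend 3.58.1 on log2(TPM + 1) and log2(TPM + 0.1), leaving out each library and a threshold of 0.05. DESeq2 over 38 libraries was added after seeing the data. Related genes may share reads in these estimates, and the reads, transcript lengths and sequences were not used here. P-values weigh group differences or correlations against the spread between these libraries.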

Additional observations from a re-analysis of the deposited data

Results flagged for a closer look

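Over 28 combinations of a member and a group, 2 had a library far from the rest of its group, where chance alone gives about 1 in 20. Prdx2 in Dose II library DII131 was at 96.5 CPM, with the nearest other Dose II library at 66.3 CPM. Prdx5 in HFD library H110 was at 190 CPM, with the nearest other HFD library at 143 CPM. Neither library was left out. Without DII131 the log2 fold change of Prdx2 in Dose II vs. HFD was -0.33 (edgeR adjusted p = 0.274), against -0.21 with it. Without H110 that of Prdx5 in Dose II vs. HFD was 0.34 (edgeR adjusted p = 0.00605), against 0.28 with it, and in HFD vs. control 0.03 (edgeR adjusted p = 0.783), against 0.10.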

How the results depend on the processing

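No paired analysis was possible because each number in the labels occurs once and no groups share one. In HFD vs. control 3 members were called, and 4 with length-trend offsets and in both limma-trend fits, where Msrb2 joined them, while with all 38 libraries the 3 were Prdx2, Txnrd1 and Msrb2. The count of 0 in Dose I vs. HFD and in Dose II vs. Dose I stood under every setting listed and with each library left out. For Dose II vs. HFD, 2 members were called, against 1 at a threshold of 0.05 and 1 with only the compared groups, 0 with all 38 libraries in edgeR or DESeq2, 3 with length-trend offsets and 3 in limma-trend on TPM with either pseudocount, and 1 to 3 with a library left out (1 without H117 or DII137, 3 without H118). In Dose I vs. control, 4 were called, against 2 with all 38 libraries (edgeR and DESeq2), with length-trend offsets and in both limma-trend fits, and 3 to 4 with a library left out. In Dose II vs. control, 3 were called, against 2 with all 38 libraries (edgeR and DESeq2) and 3 to 5 with a library left out (5 without C107). Over all genes, 3296 were called in HFD vs. control (1409 with all 38 libraries in edgeR, 1575 in DESeq2), 3704 in Dose I vs. control (1972 and 2110), 512 in Dose II vs. HFD (230 at a threshold of 0.05, 244 with all 38 libraries) and 17 in Dose I vs. HFD (5 to 80 over the settings, the highest in DESeq2), and 0 in Dose II vs. Dose I under every setting.

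Changes of sign were confined, among the values recomputed, to log2 fold changes of at most 0.171 in size for results that were not called, and to Prdx5 in Dose I vs. control. In HFD vs. control they were Prdx5 with 38 libraries (-0.16 in edgeR, -0.17 in DESeq2) and with length-trend offsets (-0.0555), and Prdx3 with those offsets (-0.00243). Txnrd2 there ran from -0.0773 to 0.0109 with a library left out. In Dose I vs. HFD they were Prdx3 without the filter (0.00255) and Txnrd1 with length-trend offsets (-0.00352) and on TPM (-0.0471 with a pseudocount of 1, -0.0502 with 0.1), and with a library left out Prdx3 ran from -0.0405 to 0.0256 and Txnrd1 from -0.0721 to 0.0919. For Dose II vs. HFD it was Prdx3 on TPM (-0.000934 and -0.000982). Prdx2 in Dose II vs. Dose I ran from -0.127 to 0.0555 with a library left out. In Dose I vs. control they were, with 38 libraries in edgeR and DESeq2, Prdx5 (-0.001005 and -0.0117), Txnrd2 (-0.0228 and -0.0267) and Msrb2 (-0.0573 and -0.0631), and, with length-trend offsets and on TPM with a pseudocount of 1 and of 0.1, Prdx3 (-0.0176, -0.0274 and -0.0276), Txnrd2 (-0.0125, -0.122 and -0.124) and Msrb2 (-0.0598, -0.0515 and -0.0516). Those in Dose II vs. control were Prdx4 with 38 libraries (-0.0468 in edgeR, -0.0564 in DESeq2), with length-trend offsets (-0.0729) and on TPM (-0.00223 and -0.00224), Txnrd2 on TPM (-0.0321 and -0.0326) and Msrb2 with length-trend offsets (-0.0117). Apart from the use of control C105, the cause of these moves was not tested. Over the 37 libraries the lowest estimated counts behind a value were 52 for Prdx2 in a control library and 54 for Txnrd1 in an HFD library. Control C105, which enters the values with all 38 libraries, held 29 for Txnrd1.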
